A study of Mus musculus with 4 samples.

Results

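The genes of glycolysis and of the transcriptional response to low oxygen were examined in CD8+ T cells grown with or without butyrate. The set holds 32 genes, taken by symbol from the 32285 genes of the count matrices in all 4 libraries. By role it consists of 2 glucose transporters, 15 glycolytic enzymes, 2 lactate dehydrogenases, 3 regulators of glycolytic or pyruvate flux, the oxygen-regulated HIF subunit gene Hif1a, 2 HIF prolyl hydroxylases and 7 other hypoxia-inducible genes. Of these, 26 are generally described as targets of hypoxia-inducible factor (HIF), and 6 (Hk1, Pfkm, Pfkp, Eno3, Ldhb and Hif1a) were taken as the rest. The cells came from spleens of gBT-I.CD45.1 transgenic mice, whose CD8+ T cells carry a T cell receptor for a peptide of the herpes simplex virus glycoprotein B. Splenocytes were activated with peptide-pulsed B6 splenocytes and 6 µg LPS and then grown in IL-2 at 12.5 U/ml. The butyrate cultures received 0.5 mM sodium butyrate from day 3 to day 5, and the control cultures received PBS. On day 6 the live CD8+ Vα2+ fraction was sorted and sequenced with the 10x 3' method. There were 2 butyrate and 2 control libraries, all of batch 1, and replicates 1 and 2 are each a pair of cultures from the same mouse. The model is thus a transgenic receptor line stimulated with antigen, LPS and IL-2 in culture, from 2 mice with 1 culture per mouse and treatment. The p-values rest on these 4 cultures and on variation pooled over genes.

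Glycolysis converts glucose to pyruvate, and activated CD8+ T cells rely on it heavily, reducing much of the pyruvate to lactate even when oxygen is present. HIF consists of an oxygen-sensitive alpha subunit, in T cells mainly the product of Hif1a, and a constant partner. Prolyl hydroxylases encoded by Egln genes mark the alpha subunit for degradation when oxygen is available, and T cell receptor and cytokine signals can raise HIF activity without hypoxia. HIF binds short DNA elements with the core ACGTG or GCGTG and raises transcription of many glycolytic genes, of Pdk1, which limits pyruvate use by mitochondria, and of its own hydroxylase genes. Butyrate, a product of fibre fermentation in the gut, inhibits histone deacetylases.

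The libraries held 64388093 to 76522004 UMIs in all, and 9915 cells passed the filters, 2560 and 2664 in butyrate and 2059 and 2632 in control libraries. The median depth per cell was 24816 and 23627.5 UMIs in butyrate and 21793 and 20494 UMIs in control libraries. Between 94.6% and 95.9% of the cells of a library had a Cd8a or Cd8b1 UMI. Pairs of libraries shared between 1 and 6 cell barcodes. Summed levels of 7 B cell markers were 48.5 and 48.9 CPM (counts scaled to library size) in butyrate and 136 and 139 CPM in control libraries, with Pax5 at 0. Single B cell markers did not all follow the sum: of 3 that could be tested, 2 were higher and 1 was lower in butyrate (edgeR, adjusted p under 0.05). The 10 myeloid markers summed to 13.8 and 15.4 CPM in butyrate and 2.04 and 2.44 CPM in control libraries, with C1qa, C1qb, Adgre1 and S100a9 at 0. Markers of CD4+ or regulatory T cells summed to 151 and 169 CPM in butyrate and 73.4 and 66.4 CPM in control libraries. Of 4 tested, 3 were higher and 1 was lower in butyrate (edgeR, adjusted p under 0.05). Markers of dendritic cells summed to 42.9 and 49.8 CPM in butyrate and 33.7 and 29.4 CPM in control libraries. Those of NK cells summed to 135 and 164 CPM in butyrate and 92.7 and 123 CPM in control libraries. The 9 CD8 T cell markers summed to 11221 and 11846 CPM in butyrate and 8508 and 8701 CPM in control libraries, with 3 higher and 2 lower. Whether the sums for other cell types stem from such cells or from the CD8+ T cells was not tested. Barcodes over the limit of 10% mitochondrial UMIs numbered 63 and 92 in butyrate and 217 and 295 in control libraries. The part of these differences in the results below was not tested, other than by leaving out cells over 5% mitochondrial UMIs.

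Most of the set was lower after butyrate. In sums of UMIs over all kept cells, 20 of the 32 genes were lower in butyrate and 4 were higher at an adjusted p under 0.05, and 8 did not pass (edgeR quasi-likelihood test with Benjamini-Hochberg adjustment over 13487 genes). Of all genes tested, 35.7% were lower and 36% higher, with a median log2 fold change of -0.01, so single calls are common in these data. The median of the 32 genes was -0.34. In 27 of the 32 genes the 2 butyrate libraries lay apart from the 2 control libraries, and Slc2a3, Hk2, Pfkm, Aldoa and Eno1 overlapped. Of all 13487 genes tested 85.9% did not overlap, so separation of the groups is no feature of the set. In sums over a culture, fewer cells expressing a gene and less RNA per cell cannot be told apart.

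**Figure D1:**
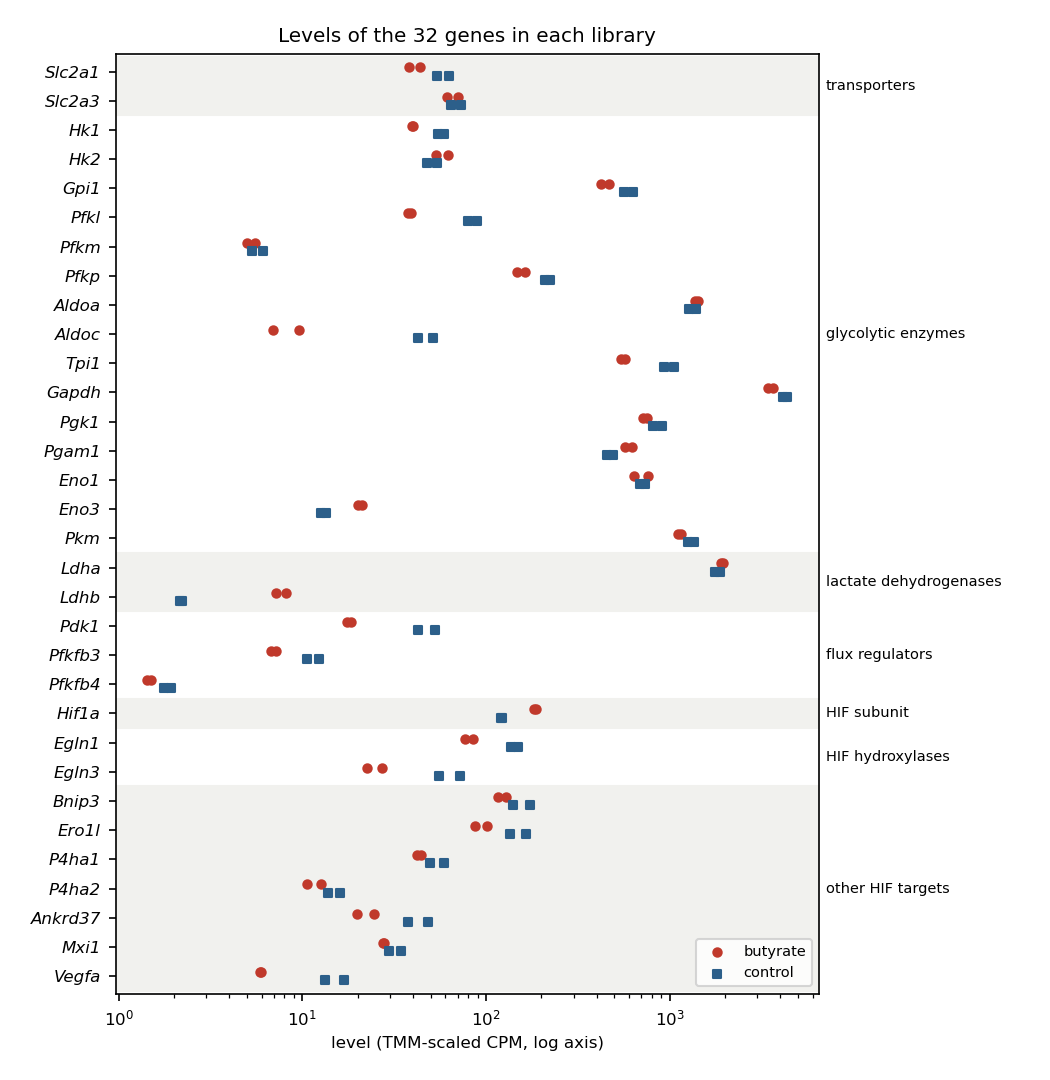
Level of each of the 32 genes in each library, as TMM-scaled CPM over all kept cells on a log axis, with genes ordered by role. Circles are the butyrate libraries and squares the control libraries. Aldoc, Pdk1, Egln3 and Vegfa show wide gaps with butyrate to the left, and Ldhb and Hif1a lie to the right.

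The 5' flanks of 7 genes are shown, 5 that were lower after butyrate (Aldoc, Pdk1, Egln3, Vegfa, Ankrd37) and 2 that were higher (Ldhb, Hif1a), as examples with and without the HIF motif. They were chosen after their values were seen. Each is the 250 bases upstream of the first start listed by RefSeq on GRCm38.p6, read in the direction of the gene. The intervals are chr11:78322823-78323072 (plus strand) for Aldoc, chr2:71872974-71873223 (plus strand) for Pdk1 and chr12:54203875-54204124 (minus strand) for Egln3. That of Vegfa is chr17:46032378-46032627 (minus strand). Those of Ankrd37, Ldhb and Hif1a are chr8:45999851-46000100 (minus strand), chr6:142507958-142508207 (minus strand) and chr12:73907617-73907866 (plus strand). Capitals mark ACGTG or GCGTG, the forms of the core HIF motif, on either strand (CACGT and CACGC on the strand shown), and overlapping matches run together.
Aldoc: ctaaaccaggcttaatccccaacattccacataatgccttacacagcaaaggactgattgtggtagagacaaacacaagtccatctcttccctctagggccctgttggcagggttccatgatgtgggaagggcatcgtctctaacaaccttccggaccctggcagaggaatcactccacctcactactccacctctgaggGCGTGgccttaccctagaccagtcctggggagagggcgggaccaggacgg
Pdk1: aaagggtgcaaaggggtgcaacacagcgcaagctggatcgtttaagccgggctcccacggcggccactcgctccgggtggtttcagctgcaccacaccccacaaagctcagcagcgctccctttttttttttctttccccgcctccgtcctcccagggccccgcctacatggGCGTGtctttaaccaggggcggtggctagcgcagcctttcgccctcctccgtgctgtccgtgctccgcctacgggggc
Egln3: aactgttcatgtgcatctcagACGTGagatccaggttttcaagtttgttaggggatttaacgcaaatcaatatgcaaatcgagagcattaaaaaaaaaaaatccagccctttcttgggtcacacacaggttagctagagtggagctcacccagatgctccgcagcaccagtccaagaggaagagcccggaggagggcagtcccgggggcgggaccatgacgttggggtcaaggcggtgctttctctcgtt
Vegfa: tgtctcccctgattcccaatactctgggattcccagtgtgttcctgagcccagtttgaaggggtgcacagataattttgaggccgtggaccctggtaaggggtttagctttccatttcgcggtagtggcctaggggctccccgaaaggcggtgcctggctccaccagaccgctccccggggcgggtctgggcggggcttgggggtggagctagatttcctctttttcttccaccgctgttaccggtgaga
Ankrd37: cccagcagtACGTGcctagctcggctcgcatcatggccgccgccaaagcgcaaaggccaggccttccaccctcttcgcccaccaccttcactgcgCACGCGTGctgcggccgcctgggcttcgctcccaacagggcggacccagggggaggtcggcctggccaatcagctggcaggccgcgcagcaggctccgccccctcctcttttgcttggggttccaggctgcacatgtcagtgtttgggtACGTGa
Ldhb: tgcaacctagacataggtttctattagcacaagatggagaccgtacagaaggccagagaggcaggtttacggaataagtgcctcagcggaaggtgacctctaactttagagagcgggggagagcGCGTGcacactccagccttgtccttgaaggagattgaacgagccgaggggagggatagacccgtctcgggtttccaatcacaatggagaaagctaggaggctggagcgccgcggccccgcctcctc
Hif1a: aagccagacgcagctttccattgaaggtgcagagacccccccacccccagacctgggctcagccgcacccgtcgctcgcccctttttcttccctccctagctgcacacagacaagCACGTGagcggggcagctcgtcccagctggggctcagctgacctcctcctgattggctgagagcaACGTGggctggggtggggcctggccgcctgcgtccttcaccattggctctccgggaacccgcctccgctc
The flank of Vegfa held no match, while those of the other genes shown did, the higher Ldhb and Hif1a among them. Within 250 bases upstream and 50 bases downstream of the start, ACGTG or GCGTG on either strand occurred in 24 of the 31 members with a RefSeq promoter (77.4%). Only the first listed start of each gene was counted. Hk1, Gpi1, Aldoa, Tpi1, Pkm, Mxi1 and Vegfa had none in that window. At a further listed start, Hk1 had 5 matches, Pkm and Vegfa had 2 each, and Aldoa and Mxi1 had 1 each. By the first start, 19 of 25 HIF targets (76%) and 5 of 6 of the rest (83.3%) had a match, against 43.8% of the 27025 promoters listed. ACGTG alone occurred in 60% of HIF targets and 33.3% of the rest, against 19.7% of all promoters. The members' windows were also richer in CpG dinucleotides, with a median of 21 per window (24 in HIF targets, 10.5 in the rest) against 7 in all promoters, and both motifs contain CpG. The E-box CACGTG, which overlaps ACGTG, was found in 12.9% of members and 7.24% of all promoters.

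Of the 2 glucose transporters, Slc2a1 was lower after butyrate and Slc2a3 did not pass. Slc2a1, the widely expressed transporter GLUT1, had 37.9 and 44.0 CPM in butyrate libraries, against 63.2 and 53.9 CPM in control libraries, a log2 fold change of -0.51 (SE 0.11, adjusted p = 0.0119, edgeR). The groups did not overlap, but with the mouse as a block the adjusted p was 0.0761. Slc2a3, the high-affinity transporter GLUT3, had 61.2 and 70.1 CPM in butyrate libraries, against 73.5 and 64.3 CPM in control libraries. The ranges overlapped and Slc2a3 did not pass (-0.07, SE 0.09, adjusted p = 0.53, edgeR), except with library totals alone (-0.27, adjusted p = 0.0195).

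In the first phase of the pathway, which spends ATP to split glucose, Hk1, Gpi1, Pfkl, Pfkp, Aldoc and Tpi1 were lower, and Hk2, Pfkm and Aldoa did not pass. Pfkl, the liver-type phosphofructokinase, had 37.8 and 39.2 CPM in butyrate libraries, against 89.5 and 80.3 CPM in control libraries (log2 fold change -1.14, SE 0.05, adjusted p = 2.40e-10, edgeR). Pfkp, the platelet type, fell by 0.48 on the log2 scale (SE 0.05, adjusted p = 3.42e-06, edgeR), while Pfkm, the muscle type, did not pass (-0.10, adjusted p = 0.359, edgeR), except with library totals alone (-0.30, adjusted p = 0.00971). Among hexokinases, which trap glucose in the cell, Hk1 had 40.0 and 39.7 CPM in butyrate libraries, against 59.0 and 54.8 CPM in control libraries (-0.51, adjusted p = 2.20e-07, edgeR). Hk2, the inducible hexokinase and a HIF target, stood at 61.8 and 53.5 CPM in butyrate libraries, against 54.0 and 47.6 CPM in control libraries. The Hk2 groups overlapped slightly and the difference did not pass (0.18, SE 0.09, adjusted p = 0.107, edgeR), although it did with the mouse as a block (adjusted p = 0.00101), without control replicate 1 (0.0272), without butyrate replicate 2 (0.00324) and in cells thinned to 8000 UMIs (0.00922). With scaling by library totals alone Hk2 was at -0.02. Gpi1, glucose phosphate isomerase, fell by 0.41 on the log2 scale (SE 0.06, adjusted p = 0.00014, edgeR).

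Aldoc, which encodes aldolase C, changed most of the 32 genes in log2 terms. It had 6.90 and 9.61 CPM in butyrate libraries, against 51.3 and 42.5 CPM in control libraries. The highest butyrate value was far below the lowest control value (log2 fold change -2.50, SE 0.23, adjusted p = 0.00536, edgeR), but with the mouse as a block the adjusted p was 0.0629. Aldoa, the main muscle and ubiquitous aldolase, had 1366 and 1420 CPM in butyrate libraries, against 1394 and 1268 CPM in control libraries. Its groups overlapped and it did not pass (0.07, SE 0.05, adjusted p = 0.246, edgeR), with a negative value under library totals alone (-0.13), without control replicate 2 (-0.01) and in thinned cells (-0.09). Tpi1, triosephosphate isomerase, had 546 and 575 CPM in butyrate libraries, against 1062 and 937 CPM in control libraries (-0.83, SE 0.06, adjusted p = 8.35e-08, edgeR).

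In the payoff phase of the pathway, which yields ATP and pyruvate, 3 genes were lower and 2 were higher. Gapdh, the glyceraldehyde phosphate dehydrogenase gene often used to normalise assays, had 3430 and 3666 CPM in butyrate libraries, against 4353 and 4124 CPM in control libraries (log2 fold change -0.26, SE 0.05, adjusted p = 0.000164, edgeR). Pgk1, phosphoglycerate kinase, and Pkm, pyruvate kinase, fell by 0.23 and 0.21 on the log2 scale (adjusted p = 0.00201 and 0.000916, edgeR), and neither overlapped between groups. Pgam1, phosphoglycerate mutase, went the other way, with 568 and 623 CPM in butyrate libraries, against 491 and 454 CPM in control libraries (0.33, SE 0.05, adjusted p = 7.93e-05, edgeR). Eno3, the muscle enolase, was higher as well, at 20.1 and 21.2 CPM in butyrate libraries, against 12.7 and 13.5 CPM in control libraries (0.65, SE 0.06, adjusted p = 1.54e-07, edgeR). Eno1, the ubiquitous enolase, did not pass (-0.03, adjusted p = 0.788, edgeR), and passed only without butyrate replicate 2 (-0.16, adjusted p = 0.0265).

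The lactate dehydrogenases interconvert pyruvate and lactate, and Ldhb was higher after butyrate. Ldhb had 7.16 and 8.18 CPM in butyrate libraries, against 2.15 and 2.22 CPM in control libraries, with no overlap (log2 fold change 1.81, SE 0.11, adjusted p = 1.12e-09, edgeR). The counts behind it were 461 and 524 UMIs in butyrate and 117 and 149 UMIs in control libraries. Ldha, the HIF-responsive isoform, had 1901 and 1957 CPM in butyrate libraries, against 1871 and 1764 CPM in control libraries. The Ldha difference did not pass (0.09, SE 0.04, adjusted p = 0.0969, edgeR), passed with the mouse as a block (adjusted p = 0.0258), and was negative with library totals alone (-0.11, adjusted p = 0.0268).

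Among the flux regulators, Pdk1, the kinase that inactivates pyruvate dehydrogenase, had 17.6 and 18.4 CPM in butyrate libraries, against 52.5 and 42.7 CPM in control libraries. This was a log2 fold change of -1.40 (SE 0.11, adjusted p = 5.94e-05, edgeR) with no overlap. Pfkfb3, which makes a fructose bisphosphate that activates phosphofructokinase, had 6.73 and 7.15 CPM in butyrate libraries, against 12.3 and 10.6 CPM in control libraries (-0.72, SE 0.08, adjusted p = 1.85e-06, edgeR). Pfkfb4, another gene of that family, rested on 92 to 129 UMIs per library and did not pass (-0.33, SE 0.16, adjusted p = 0.0741, edgeR), except with library totals alone (adjusted p = 0.00649).

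Hif1a and the hydroxylase genes moved in opposite directions. Hif1a had 187 and 183 CPM in butyrate libraries, against 123 and 120 CPM in control libraries (log2 fold change 0.61, SE 0.04, adjusted p = 4.77e-09, edgeR). The replicates of a group differed by far less than the groups did. Egln1, the hydroxylase PHD2, had 76.8 and 85.4 CPM in butyrate libraries, against 149 and 136 CPM in control libraries (-0.81, SE 0.06, adjusted p = 2.42e-07, edgeR). Egln3, the hydroxylase PHD3, had 22.4 and 27.2 CPM in butyrate libraries, against 72.3 and 55.5 CPM in control libraries, again with no overlap (-1.36, SE 0.22, adjusted p = 0.0240, edgeR). The Egln3 call was lost with the mouse as a block (adjusted p = 0.123), without butyrate replicate 1 (0.116), without butyrate replicate 2 (0.0939) and with no low-count filter (0.0523). The data are transcript counts and say nothing of HIF protein.

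Of the 7 other HIF targets, 6 fell. Vegfa, the vascular endothelial growth factor gene, had 5.86 and 5.97 CPM in butyrate libraries, against 16.9 and 13.3 CPM in control libraries (log2 fold change -1.35, SE 0.12, adjusted p = 7.34e-06, edgeR). Ankrd37, a small ankyrin repeat gene, had 19.8 and 24.6 CPM in butyrate libraries, against 48.3 and 37.7 CPM in control libraries (-0.95, SE 0.22, adjusted p = 0.0439, edgeR). Ero1l, an oxidase for protein folding in the endoplasmic reticulum, had 87.7 and 101 CPM in butyrate libraries, against 164 and 135 CPM in control libraries (-0.67, SE 0.15, adjusted p = 0.0287, edgeR). In each of these 3 genes control replicate 1 was the highest library and the groups did not overlap. The Ankrd37 call was lost with the mouse as a block (adjusted p = 0.185), without butyrate replicate 1 (0.12) or 2 (0.0755), with no low-count filter (0.0882) and without cells of high doublet score (0.0554). That of Ero1l was lost with the block (0.162), without butyrate replicate 1 (0.071) and in thinned cells (0.0644). P4ha1 and P4ha2, subunits of collagen prolyl hydroxylases, fell by 0.32 and 0.36 on the log2 scale (adjusted p = 0.0052 and 0.00848, edgeR), and P4ha1 had an adjusted p of 0.0525 without butyrate replicate 1. Mxi1, an antagonist of MYC, fell by 0.20 (adjusted p = 0.0168, edgeR), and its adjusted p was 0.155 without control replicate 1, 0.0834 and 0.055 without butyrate replicates 1 and 2, and 0.0535 in DESeq2. Bnip3, a mitophagy receptor, had 116 and 128 CPM in butyrate libraries, against 173 and 141 CPM in control libraries. It did not pass (-0.36, SE 0.13, adjusted p = 0.0827, edgeR), but did when either control replicate was left out (adjusted p = 0.00449 without replicate 1 and 1.82e-07 without replicate 2), in thinned cells (0.014), with library totals alone (0.0135) and with no low-count filter (3.97e-05).

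**Figure D2:**
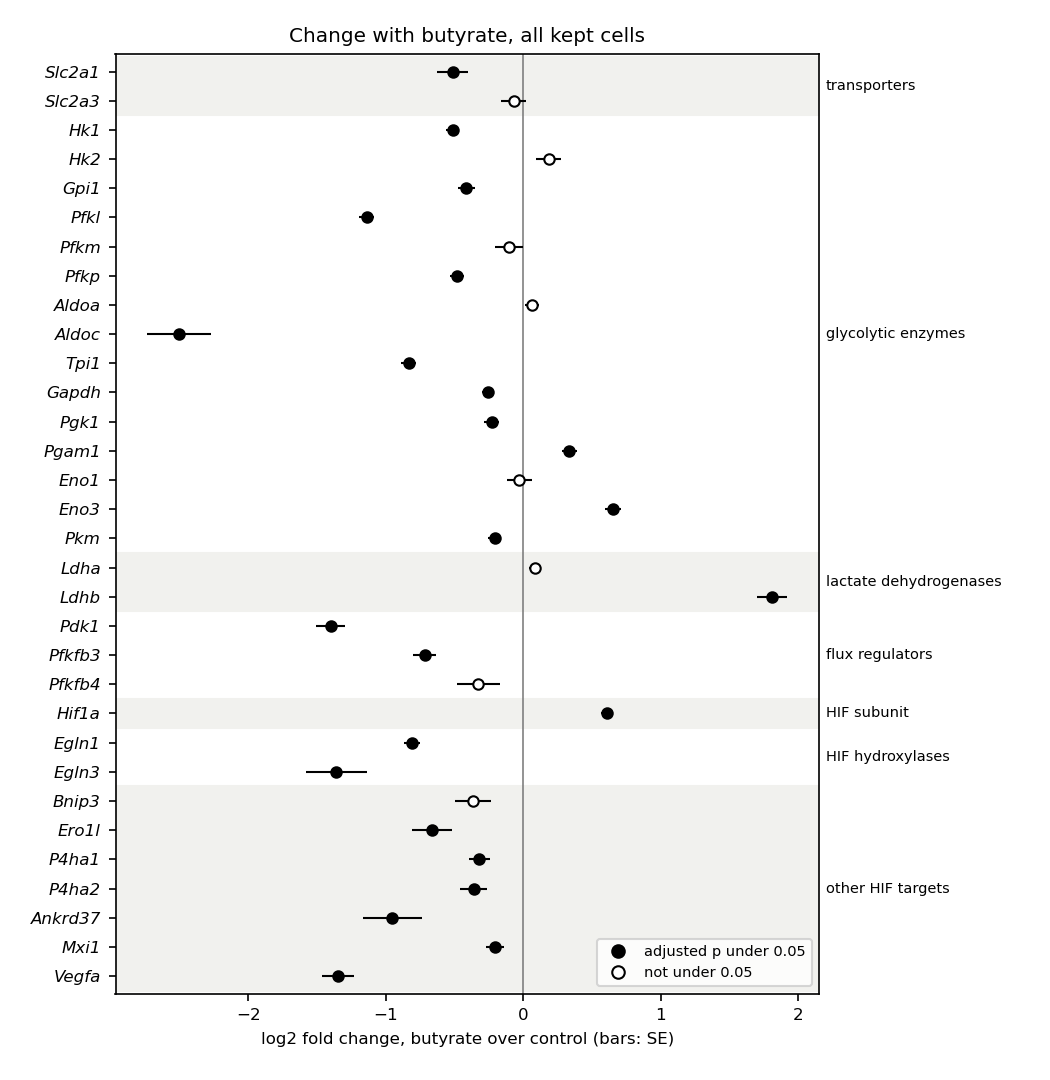
Log2 fold change of each gene, butyrate over control, in sums over all kept cells of 2 libraries per group, with bars for the standard error and filled points for an adjusted p under 0.05 (edgeR). Aldoc lies farthest to the left at -2.50 and Ldhb farthest to the right at 1.81, and all 12 HIF targets outside the glycolytic chain lie left of 0.

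Set side by side, 18 of the 26 HIF targets were lower (69.2%) and 1, Pgam1, was higher (3.85%), against 35.7% and 36% of all genes tested. The median log2 fold change of the HIF targets was -0.36. Of the other 6 genes, 2 were lower (Hk1, Pfkp) and 3 were higher (Eno3, Ldhb, Hif1a). Their values were 3 positive and 3 negative, so the median of 0.25 lies in the gap between Pfkm (-0.10) and Hif1a (0.61). The 12 HIF targets outside the chain from transporter to lactate dehydrogenase all had negative values, with a median of -0.69, and 10 of them passed (83.3%). The 19 genes of the chain had a median of -0.21, with 10 lower (52.6%) and 3 higher (15.8%). With the mouse as a block, 15 members were lower and 6 higher (36.6% and 36.8% of all genes tested), 7 of the 12 and 8 of the 19 were lower, and 5 of the 19 were higher. Leaving out a butyrate culture leaves 1 library in that group, so the size of the change is given here. The median of the 12 became -0.62 when replicate 1 was dropped, against -0.01 over all genes. It became -0.76 when replicate 2 was dropped, again against -0.01 over all genes. Several of the 12 lost their call in these fits, as given with the genes. No HIF target outside the chain was higher in edgeR (0 at an unadjusted p under 0.05) or in DESeq2, and all 12 had negative values under all 13 alternatives. Scaling by library totals alone moved the median of all genes to -0.21, and the set's median was then -0.54. That scaling gave 49.8% lower and 25.2% higher calls over all genes, and 26 lower and 4 higher in the set. Of the 24 calls in the set, 17 kept their direction and their side of the threshold under all 13 alternatives. The exceptions were Slc2a1, Aldoc, Egln3, Ero1l, P4ha1, Ankrd37 and Mxi1.

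Further genes of the same pathways were listed outside the 32. Of 36 listed genes of glycolysis and glucose use, 29 could be tested, with 11 higher (37.9%), 12 lower (41.4%) and a median log2 fold change of 0.00, near the 36% higher and 35.7% lower of all genes. The lower genes included Gys1, glycogen synthase (-1.06, adjusted p = 2.42e-08), Pygb, a glycogen phosphorylase (-0.73, adjusted p = 6.09e-08), and Pgd of the pentose phosphate pathway (-0.61, adjusted p = 8.32e-09, all edgeR). The higher genes included Taldo1, transaldolase (0.82, adjusted p = 1.12e-09), Gpd2, the mitochondrial glycerol phosphate dehydrogenase (0.61, adjusted p = 2.11e-07, both edgeR), and Eno2, the neuronal enolase. Eno2 had 91 and 88 UMIs in butyrate libraries, against 1 and 1 UMI in control libraries, a ratio of 84.8 with an exact 95% interval for counting error of 23.1 to 706. Of 38 further genes of the HIF pathway, 35 were tested, with 7 higher (20%), 20 lower (57.1%) and a median of -0.25. Stc2, a secreted glycoprotein (-2.52, adjusted p = 1.79e-12), Narf (-1.11, adjusted p = 2.29e-09) and Zfp292 (-0.76, adjusted p = 6.67e-09, all edgeR) had the smallest p among the lower genes. Kdelr3 (2.16, adjusted p = 1.83e-08), Epas1, which encodes another HIF alpha subunit (1.505, adjusted p = 3.24e-07), and the collagen lysyl hydroxylase Plod1 (1.46, adjusted p = 1.68e-08, all edgeR) had it among the higher.

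Cells were next divided by whether they held at least 1 UMI of Mki67 or Top2a, genes of proliferating cells. There were 2342 and 2395 Mki67/Top2a+ cells in butyrate and 1818 and 2314 in control libraries, and 218 and 269 Mki67/Top2a- cells in butyrate and 241 and 318 in control libraries. With each cell thinned to 8000 UMIs, which left out 54 and 68 cells in butyrate and 71 and 112 in control libraries, the share with a UMI of either gene was 86.0% and 84.2% in butyrate and 86.0% and 85.6% in control libraries. The difference of -0.69 percentage points was within the spread (exact two-sided permutation p = 0.667, where 0.333 is the smallest possible with 2 against 2). Without thinning the difference was 2.59 points. Depth differed between the classes: the Mki67/Top2a+ cells had median depths of 25780.5 and 24742 UMIs in butyrate and 23625.5 and 22168 UMIs in control libraries. The Mki67/Top2a- cells had 15183.5 and 14447 UMIs in butyrate and 10874 and 10513.5 UMIs in control libraries. Cells without a UMI of either gene are therefore a mixture of cells that lack the transcripts and cells sampled too shallowly to show them.

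Across the 4 libraries, with library as a block, 15 of the 32 genes were lower in Mki67/Top2a+ than in Mki67/Top2a- cells and none was higher (edgeR, 12789 genes tested, 16.2% lower and 16.7% higher). At an unadjusted p under 0.05 only Eno3 was higher, and no other tool was run on this contrast. The fit took the same class effect for both treatments, although the contrast differed between them for most of the set, as given below. The larger differences were those of Aldoc (log2 fold change -1.92, adjusted p = 0.00429), Ankrd37 (-1.34, adjusted p = 0.00292), Slc2a3 (-1.21, adjusted p = 0.000478), Pdk1 (-0.91, adjusted p = 0.00525) and Pfkfb3 (-0.89, adjusted p = 0.00292, all edgeR). These 5 genes, Egln3 and Mxi1 kept the call under all 9 alternatives. The other 8 (Slc2a1, Gpi1, Gapdh, Bnip3, Hif1a, Ero1l, P4ha1 and P4ha2) lost it when control replicate 1 was left out, with adjusted p from 0.0831 (Ero1l) to 0.18 (P4ha2), and also without control replicate 2, with 0.099 (Ero1l) to 0.201 (P4ha2). The Hif1a call was lost under all 9 alternatives. Without butyrate replicate 2 the calls of Gpi1 (0.062), Hif1a (0.125), Ero1l (0.0507) and P4ha1 (0.0905) were lost, and without butyrate replicate 1 that of Hif1a (0.0971). Leaving out butyrate replicate 1 added Aldoa (0.0185), Pgk1 (0.0152), Pkm (0.0364), Ldhb (0.0284) and Egln1 (0.0119).

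The contrast between the classes was larger in control than in butyrate cultures. In both control libraries 29 of the 32 genes had a higher level in Mki67/Top2a- cells than in Mki67/Top2a+ cells, against 19 genes in both butyrate libraries. The same counts were not made over all genes. A different measure is the sign in the fit across the 4 libraries, whether called or not. By it, 30 of the 32 genes and 6625 of the 12789 genes tested had a higher level in Mki67/Top2a- cells. The median log2 ratio of Mki67/Top2a- to Mki67/Top2a+ cells over the 12 HIF targets outside the chain was 0.16 and 0.50 in butyrate and 0.86 and 0.91 in control libraries. Over the 19 chain genes it was 0.00 and 0.04 in butyrate and 0.60 and 0.64 in control libraries. Aldoc is an example: its level was 6.47 and 8.52 CPM in butyrate and 39.4 and 31.8 CPM in control Mki67/Top2a+ cells. In Mki67/Top2a- cells it was 9.77 and 20.2 CPM in butyrate and 228 and 201 CPM in control libraries. The control Mki67/Top2a- cells thus stood apart from the other 3 kinds of sum. In droplets with under 100 UMIs, which hold RNA free in the suspension, Aldoc had 13.9 and 12.6 CPM in butyrate and 86.0 and 75.7 CPM in control libraries, below the control Mki67/Top2a- cells and above the control Mki67/Top2a+ cells.

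Within Mki67/Top2a+ cells, 17 of the 32 genes were lower after butyrate and 5 were higher (edgeR, 13395 genes tested, 35.7% lower and 35.9% higher), with a median log2 fold change of -0.31. Within Mki67/Top2a- cells, 25 of the 31 genes tested were lower and 2, Eno3 and Hif1a, were higher (edgeR, 9733 genes tested, 24.2% lower and 25.8% higher), with a median of -0.90. In this class all 11 HIF targets outside the chain that could be tested were lower, and Pfkfb4 had too few UMIs. The 6 genes taken as the rest had a median of -0.07 there, with 3 lower and 2 higher. In both classes 17 genes were lower, and 8 more were called lower in Mki67/Top2a- and not in Mki67/Top2a+ cells. These 2 counts were not made over all genes. P4ha2 had 10.3 and 12.0 CPM in butyrate and 13.8 and 11.4 CPM in control Mki67/Top2a+ cells, which overlapped (-0.18, adjusted p = 0.178, edgeR). In Mki67/Top2a- cells P4ha2 had 9.21 and 13.7 CPM in butyrate and 44.4 and 46.9 CPM in control libraries (-1.95, SE 0.18, adjusted p = 1.45e-09, edgeR). The sign of Aldoa differed between the classes. It had 1323 and 1361 CPM in butyrate and 1274 and 1160 CPM in control Mki67/Top2a+ cells (0.13, adjusted p = 0.0234, edgeR), a call lost without control replicate 2 (0.322), without butyrate replicate 2 (0.111), in thinned cells (0.413) and at a mitochondrial limit of 5% (0.0727), and the value was -0.07 with library totals alone. In Mki67/Top2a- cells Aldoa had 1202 and 1397 CPM in butyrate and 2493 and 2297 CPM in control libraries (-0.86, SE 0.08, adjusted p = 4.36e-09, edgeR).

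Some of the calls within a class changed when a library was left out, which leaves 1 library in a group, or with the mouse as a block. The cause of these changes was not tested. In Mki67/Top2a+ cells, Pgk1 was lost without control replicate 1 (adjusted p = 0.0924) or butyrate replicate 1 (0.0527). Egln3 was lost without butyrate replicate 1 (0.184) or 2 (0.156) and with the mouse as a block (0.126), and so was Ero1l (0.134, 0.0933 and 0.145). Slc2a1 was lost with the block (0.163), which added Hk2 (0.00096) and Ldha (0.0188) as higher. Calls were gained for Ankrd37 and Bnip3 without control replicate 1 (0.00187 and 0.0126) or 2 (0.000201 and 2.52e-06), and for Mxi1 (0.000679) and P4ha2 (0.00734) without control replicate 2. Without butyrate replicate 2, P4ha2 (0.0171), Eno1 (0.031) and, as higher, Hk2 (0.00107) passed, and without control replicate 1, Hk2 (0.0194) and Ldha (0.0491) passed as higher. In Mki67/Top2a- cells, Eno1 was lost without butyrate replicate 1 (0.119) or control replicate 2 (0.191), and Pfkfb3 without control replicate 1 (0.0634) or butyrate replicate 2 (0.0992). In the same class Pgam1 passed as lower without butyrate replicate 2 (0.0242), and Ldhb as higher without butyrate replicate 1 (0.0434).

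**Figure D3:**
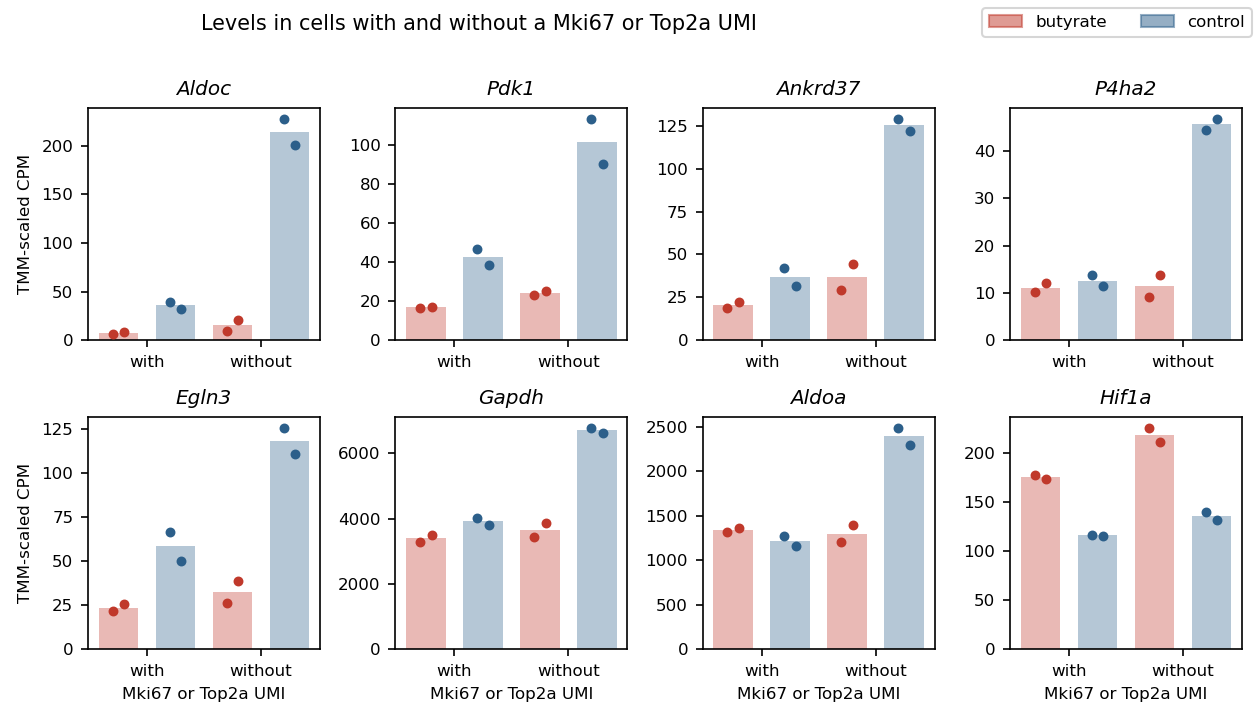
Levels of 8 genes in Mki67/Top2a+ cells (with) and Mki67/Top2a- cells (without), as TMM-scaled CPM summed per library. Bars are means of 2 libraries, points are the libraries, and butyrate stands left of control in each pair. For 7 of the genes the control Mki67/Top2a- cells hold the highest bar, such as Aldoc at 228 and 201 CPM, and Hif1a is higher with butyrate in both classes.

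The difference between the classes was tested directly as an interaction. For 27 of the 32 genes the log2 change with butyrate was higher in Mki67/Top2a+ than in Mki67/Top2a- cells, for none was it lower (1, Eno3, at an unadjusted p under 0.05), and the median difference was 0.59 (edgeR, 12789 genes tested, 12.9% higher and 12.8% lower). No other tool was run on this difference. By group this was 23 of the 26 HIF targets and 4 of the other 6. The genes that did not pass were Hk2, Pfkfb3, Pfkfb4, Hif1a and Eno3, and of these Eno3 (-0.55, adjusted p = 0.0824), Pfkfb4 (-0.40, adjusted p = 0.697) and Hif1a (-0.09, adjusted p = 0.557, all edgeR) had the opposite sign. The largest differences were those of P4ha2 (1.83, SE 0.19, adjusted p = 6.22e-09) and Aldoc (1.59, SE 0.16, adjusted p = 2.96e-09). Pfkm followed (1.49, SE 0.34, adjusted p = 0.0011), then Ldhb (1.35, SE 0.34, adjusted p = 0.00293) and Aldoa (1.03, SE 0.06, adjusted p = 1.60e-14, all edgeR). The Pfkm value was 0.47 (adjusted p = 0.517) and that of Ldhb 1.17 (adjusted p = 0.0763) in thinned cells. Both rest on few UMIs in Mki67/Top2a- cells. Pfkm had 11 and 15 UMIs there in butyrate and 33 and 32 UMIs in control libraries. Ldhb had 24 and 39 UMIs in butyrate and 16 and 21 UMIs in control libraries. Hif1a had 178 and 174 CPM in butyrate and 117 and 115 CPM in control Mki67/Top2a+ cells, and 226 and 211 CPM in butyrate and 140 and 132 CPM in control Mki67/Top2a- cells. Its log2 change was 0.59 in Mki67/Top2a+ and 0.71 in Mki67/Top2a- cells, and the difference in the joint model was -0.09 (SE 0.09, adjusted p = 0.557, edgeR).

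Of the 27 differences, 17 kept the call under all 9 alternatives. Without control replicate 1 it was lost by Pfkl (adjusted p = 0.11), P4ha1 (0.0761) and Vegfa (0.143). Without butyrate replicate 1 it was lost by Pfkl (0.286), Pfkp (0.0699), Egln3 (0.0636), P4ha1 (0.21) and Vegfa (0.244). Without control replicate 2 it was lost by Slc2a1 (0.0595), Pfkl (0.0586), Pfkp (0.123), Ldha (0.129), P4ha1 (0.113) and Vegfa (0.0711), and without butyrate replicate 2 by Vegfa (0.092). In cells thinned to 8000 UMIs, where class and sums rest on equal depth, 20 of the 32 genes were higher, against 10.9% of all genes tested. Among cells with at least 10000 UMIs 25 were higher, against 9.63% of all genes. At a mitochondrial limit of 5% 24 were higher, against 11.8% of all genes, with Eno3 significant in the opposite direction (-0.90, adjusted p = 0.0193). With a class limit of 2 UMIs 27 were higher, against 16.7% of all genes, and Hif1a was lower (-0.20, adjusted p = 0.0358).

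**Figure D4:**
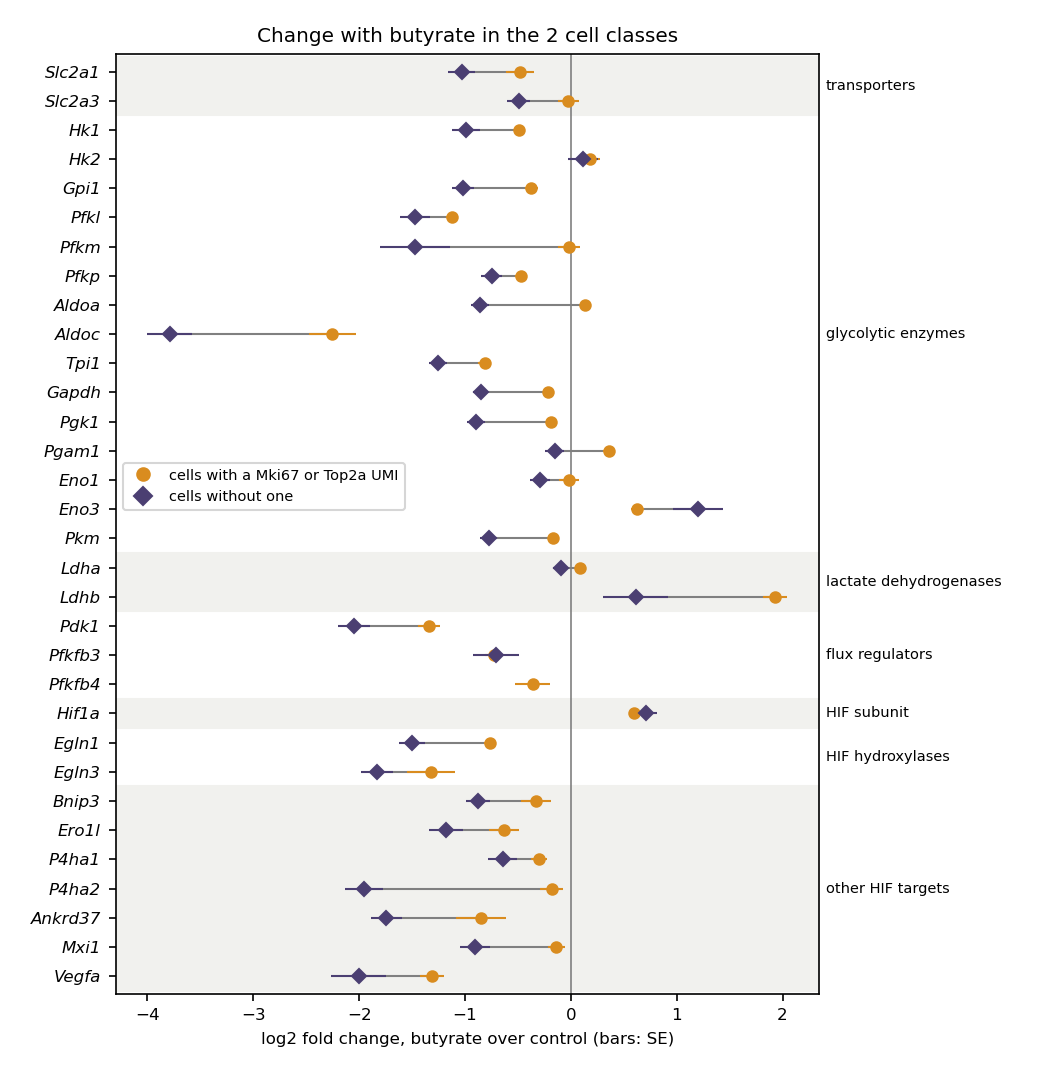
Log2 fold change of each gene, butyrate over control, within Mki67/Top2a+ cells (circles) and Mki67/Top2a- cells (diamonds), with bars for the standard error and a line joining the classes. Aldoc is at -2.25 in Mki67/Top2a+ and -3.79 in Mki67/Top2a- cells, and for most genes the diamond lies left of the circle, while Eno3 and Hif1a lie right of 0 in both classes.

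Fewer cells carried a UMI of several HIF targets after butyrate. This share also falls when each cell holds less of the RNA, so whether fewer cells expressed the genes was not tested. After thinning to 8000 UMIs, an Aldoc UMI was found in 5.59% and 7.01% of butyrate cells, against 31.5% and 25.9% of control cells (14.8% and 17.8%, against 50.7% and 42.2%, without thinning). Egln3 was found in 14.6% and 17.1% of butyrate cells, against 40.6% and 34.2% of control cells, and Pdk1 in 13.7% and 13.1%, against 35.8% and 31.3%. The exact 95% intervals of these 3 genes, which cover counting error only, separated every butyrate from every control library. For Ldhb the order was the opposite, with 4.51% and 5.70% of butyrate cells, against 1.91% and 1.55% of control cells. Cd79a, a B cell gene that CD8+ T cells should lack, was found in 0.0399% and 0.116% of butyrate cells, against 0% and 0.0794% of control cells, where 0 of 1988 cells allows a share of up to 0.151%.

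The sum of the 12 HIF targets outside the chain was 3.20 and 3.57 UMIs per thinned cell in butyrate libraries, against 7.36 and 6.07 UMIs in control libraries. The spread among cells differed too. The 10th percentile was 1 UMI in all 4 libraries, while the 90th was 6 and 7 UMIs in butyrate and 15.3 and 14 UMIs in control libraries. The variance over the mean was 1.61 and 2.30 in butyrate and 4.72 and 4.90 in control libraries, where counting alone gives 1. For the 19 chain genes the mean was 80.6 and 86.8 UMIs in butyrate and 118 and 111 UMIs in control libraries, and the variance over the mean was 6.83 and 8.86 in butyrate and 21.03 and 22.62 in control libraries. Within Mki67/Top2a+ cells at this depth the HIF targets summed to 3.15 and 3.48 UMIs in butyrate and 6.91 and 5.58 UMIs in control libraries. Within Mki67/Top2a- cells they summed to 3.53 and 4.06 UMIs in butyrate and 10.1 and 8.98 UMIs in control libraries, a wider gap. The classes here were set from the thinned counts, with 352 and 409 Mki67/Top2a- cells in butyrate and 278 and 364 in control libraries. Some of these cells held a UMI of either gene before thinning. The part of depth in the wider gap was not tested further.

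The HIF targets were also detected together in single cells, with higher ratios in control libraries. In thinned cells with a Bnip3 UMI the level of the other 11 HIF targets outside the chain was a median of 1.16 and 1.31 times that in cells without in butyrate libraries, against 2.04 and 1.87 times in control libraries. For the 19 chain genes the medians were 1.08 and 1.15 times in butyrate and 1.57 and 1.51 times in control libraries. Ero1l had ratios of 1.17 and 1.31 in butyrate and 2.35 and 2.40 in control libraries, and Egln3 had 1.12 and 1.43 in butyrate and 2.13 and 2.75 in control libraries. Hif1a itself had ratios of 1.05 and 1.00 in butyrate and 1.05 and 1.08 in control libraries. By the Bnip3 division Mki67 and Top2a had ratios of 0.86 to 0.92 in butyrate and 0.96 to 1.06 in control libraries. With cells divided by an Aldoc UMI instead, the medians over the 12 targets were 1.06 and 1.34 times in butyrate and 1.75 and 2.14 times in control libraries, although only 140 and 182 butyrate cells held an Aldoc UMI, against 626 and 653 control cells. By that division Mki67 and Top2a had ratios of 0.77 to 0.83 in butyrate and 0.68 to 0.82 in control libraries. These ratios describe cells within a library and have no test.

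**Figure D5:**
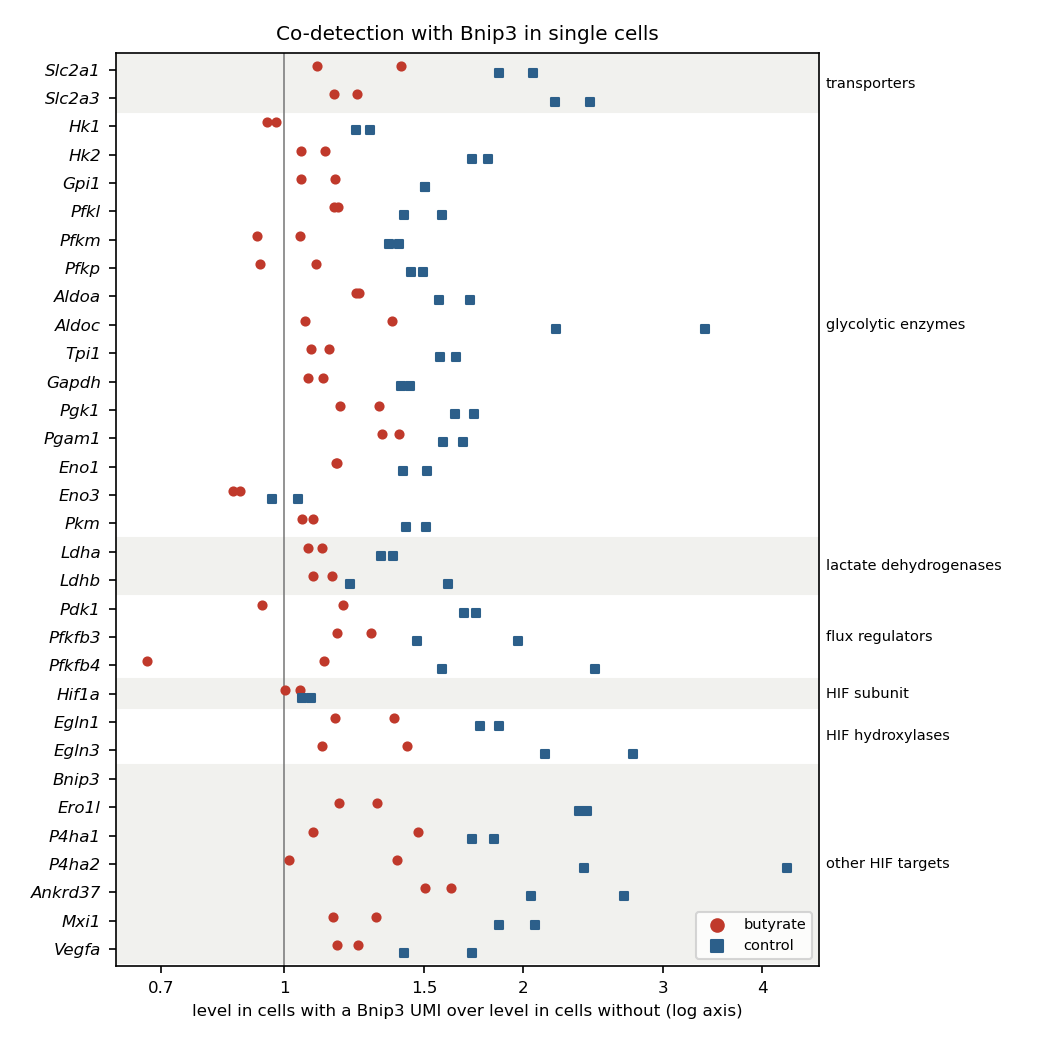
Ratio of each gene's level in cells with a Bnip3 UMI to that in cells without, in each library, from cells thinned to 8000 UMIs, on a log axis. Circles are butyrate and squares control libraries, and the line marks equal levels. Most squares lie to the right of the circles of the same gene, for Ero1l at 2.35 and 2.40 against 1.17 and 1.31, while all 4 ratios of Hif1a are near 1.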

How the data were processed

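CD8+ T cell RNA was counted by droplet sequencing (10x 3' chemistry) in 2 butyrate and 2 control libraries. The deposited files hold raw UMI counts per gene and barcode for all barcodes, made with Cell Ranger 4 per the file headers. The submitters' processing notes also name Seurat 4.3 and mm10, while the annotation release and the handling of intronic reads are not stated in the labels or headers. Gene symbols, identifiers and barcodes were used as deposited. Of the 2 identifiers named Aldoa, the second, with 11 UMIs in all, was left out.

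Barcodes were kept at 10% or more of the 99th percentile of the top 3000 barcodes by UMIs, with at least 500 genes and under 10% mitochondrial UMIs. Doublets were not removed, since Scrublet (scanpy 1.11.5) called only 2 to 8 cells per library. Counts were summed per library, or per library and cell class, and the sums were compared in edgeR 4.0.16 under R 4.3.3 (quasi-likelihood F test, robust, TMM scaling, filterByExpr, Benjamini-Hochberg over all tested genes, threshold 0.05). Standard errors are the log2 fold change over the square root of F. CPM values are scaled by TMM, except those of droplets under 100 UMIs, which are scaled to the droplets' own UMI total. The library was a block in the contrast of the classes and in the interaction. The main butyrate comparisons within a class had no block. The fits were tested on simulated data with genes changed by -0.5 and 0.5 on the log2 scale. Of these, 88% and 90% were called in the comparison over all cells. For cells with against cells without it was 18% and 30%, and for the difference of the butyrate change between classes 20% and 28%. The simulation gave every gene the same dispersion and changed few genes, so it does not give the power for single members. The replicate numbers pair cultures of the same mouse, per the labels. The correlation of same-mouse deviations over genes was 0.132. Alternatives were DESeq2 1.42.0, other scalings and filters, thinning to 8000 UMIs, the mouse block, and leaving out each library. Binomial intervals are exact at 95% and cover counting error only, and a count of 0 allows up to 3 counts. All 32 genes are named. Of each further pathway list, the 3 genes with the smallest p in each direction are named. The members and the lists were chosen with earlier results of these data known.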

Additional observations from a re-analysis of the deposited data

Results flagged for a closer look

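For 27 genes the log2 change with butyrate differed between cells with and cells without a Mki67 or Top2a UMI, by the interaction term of the model (edgeR, adjusted p under 0.05). The values are the change in cells with a UMI minus that in cells without, and all 27 were positive. For the transporters it was Slc2a1 (0.60) and Slc2a3 (0.51). For the enzymes of the first phase it was Hk1 (0.54), Gpi1 (0.68), Pfkl (0.38), Pfkm (1.49), Pfkp (0.31), Aldoa (1.03), Aldoc (1.59) and Tpi1 (0.47). For those of the payoff phase it was Gapdh (0.67), Pgk1 (0.75), Pgam1 (0.55), Eno1 (0.30) and Pkm (0.63), and for the lactate dehydrogenases Ldha (0.22) and Ldhb (1.35). For the flux regulator Pdk1 it was 0.74, and for the hydroxylase genes Egln1 (0.78) and Egln3 (0.56). For the other HIF targets it was Bnip3 (0.59), Ero1l (0.59), P4ha1 (0.38), P4ha2 (1.83), Ankrd37 (0.95), Mxi1 (0.81) and Vegfa (0.74). The values of Pfkm and Ldhb rest on 11 to 33 and 16 to 39 UMIs per library in cells without a Mki67 or Top2a UMI. Depth per cell and the level of these genes in droplets under 100 UMIs also differed between the treatments, and their part in these differences was not tested beyond the fits on thinned cells and on cells with at least 10000 UMIs.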

How the results depend on the processing

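Of 416 values for single genes under the alternatives of the butyrate comparison over all cells, 372 kept their direction and side of the threshold, 19 lost and 16 gained the call, and 9 turned. The cause of these changes was not tested. HIF targets called higher numbered 1, against 2 with no low-count filter, in thinned cells and in DESeq2, 3 with the replicate block (the mouse), and 1 to 2 with a library left out. The block moved the chain genes called higher to 5, and beyond the calls named with the results it changed no other call among the 32 genes. The median of the rest was 0.0524 with library totals alone, 0.2175 at a mitochondrial limit of 5%, 0.3145 in thinned cells and 0.1886 to 0.2933 with a library left out. The HIF targets outside the chain called lower numbered 5 (without butyrate replicate 1) to 11. Library totals alone gave medians of -0.4068 for the chain, -0.2021 for the further glycolytic genes and -0.449 for the further HIF genes. The median of the further glycolytic genes, near 0, was 0.012 with DESeq2 size factors, 0.0215 with no filter, 0.0027 for barcodes of at least 1000 UMIs, 0.0001 without high doublet scores, 0.0121 in DESeq2, -0.0647 in thinned cells and -0.0392 to 0.01 with a library left out.

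Turned values over all cells were, with library totals alone, Hk2 -0.0151, Aldoa -0.134 and Ldha -0.114, and in thinned cells Aldoa -0.0881. With a library left out, Slc2a3 ranged from -0.168 to 0.0259, Aldoa from -0.00556 to 0.126 and Eno1 from -0.159 to 0.0907. Between cells with and without a Mki67 or Top2a UMI, library totals alone gave 2 members higher and 9 lower (Hk2 0.0541, Pfkl 0.0179, Tpi1 0.0645), and thinned cells gave Pfkm 0.0753, Ldha -0.0277 and Pfkfb4 0.538. With a library left out, Pfkm ranged from -0.546 to 0.0366 and Tpi1 from -0.162 to 0.036, members lower numbered 7 to 19, all genes higher 1073 to 2278 and lower 770 to 2198. For the difference of the change, 1 member was lower with library totals alone, a class limit of 2 UMIs and the 5% limit. All genes higher there numbered 1001 to 1230 with a library left out, and lower 898 in thinned cells. Single values turned for Hk2 (-0.0171 with library totals, -0.0115 thinned), Pfkfb3 (-0.108 with library totals, -0.0393 at 10000 UMIs, -0.25 to 0.272 with a library left out) and Pfkfb4 (0.0847 thinned). Within cells with a UMI, library totals gave Hk2 -0.0162, Aldoa -0.0664 and Ldha -0.109. With a library left out there, Slc2a3 ranged from -0.133 to 0.0798, Pfkm from -0.114 to 0.0618 and Eno1 from -0.148 to 0.103, and in cells without a UMI Hk2 ranged from -0.0744 to 0.296. The share of cells with a UMI differed by 2.59 points without thinning and by -1.54 to 0.168 points with a library left out. Pfkfb4, with 92 to 129 UMIs per library, is the gene most limited by depth.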
